A study of Mus musculus with 12 samples.

Results

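The genes described here build and load MHC class I, the molecule with which cells show fragments of their own proteins to CD8 T cells. They are 10 genes, taken by name from a count table of 54532 genes measured in mouse spinal cord: the class I heavy chains H2-K1, H2-D1, H2-T23 and H2-M3, the light chain B2m, the peptide transporter Tap1 and Tap2, the loading factor Tapbp, the trimming peptidase Erap1 and the transactivator Nlrc5. No measured value entered their choice, and all 10 passed the filter for low counts.

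Total RNA of whole spinal cord from C57BL/6 mice aged 2 to 3 months was sequenced in 12 libraries, 3 labelled biological replicates in each of 4 groups. The groups were Drd2mGFAP conditional knockout mice (cKO) at day 17 of experimental autoimmune encephalomyelitis (EAE), littermate controls (genotype labelled wt) at the same time of EAE, cKO mice without disease (basal) and control mice without disease. EAE is a model of multiple sclerosis in which immunization turns T cells against myelin, Drd2 encodes the dopamine D2 receptor, and GFAP in the genotype name is the promoter of an astrocyte gene. The labels do not say whether the controls carried a Cre transgene or a floxed allele. The design sets cKO against control animals without disease and at day 17 of EAE.

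A class I heavy chain folds with beta-2 microglobulin, the product of B2m, in the endoplasmic reticulum. The transporter made of TAP1 and TAP2 brings in peptides cut by the proteasome, tapasin (Tapbp) holds the empty molecule to the transporter, and the peptidase ERAP1 trims the peptides to fit. Interferon gamma raises most of these genes together in many cell types, through IRF1 and the coactivator NLRC5, which acts at a shared promoter module of X and Y boxes. In the healthy central nervous system class I is low in neurons and glia, and microglia and blood-borne leukocytes carry more of it.

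Promoter sequences of the H2-K1, H2-M3, B2m and Tap1 genes are shown because 3 of them share the arrangement of that module and Tap1 holds 1 of its motifs without the other in the stretch shown. They are RefSeq sequences on build GRCm38.p6, read 5′ to 3′ on the strand of the gene, ending at or just before the start of transcription and containing no annotated exon of that strand. Capitals mark matches, on either strand, to CCAAT (the Y box), TGACG (the core of the X2 box), GGGNNTTCC (like an NF-kB site) and GAAANNGAA (a core of interferon regulatory factor sites).
H2-K1 (chr17:34000348-34000547, minus strand): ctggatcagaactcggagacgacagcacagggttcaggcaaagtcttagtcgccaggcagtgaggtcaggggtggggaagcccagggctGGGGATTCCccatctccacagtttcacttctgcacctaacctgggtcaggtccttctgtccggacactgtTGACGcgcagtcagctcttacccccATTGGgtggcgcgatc
H2-M3 (chr17:37270034-37270219, plus strand): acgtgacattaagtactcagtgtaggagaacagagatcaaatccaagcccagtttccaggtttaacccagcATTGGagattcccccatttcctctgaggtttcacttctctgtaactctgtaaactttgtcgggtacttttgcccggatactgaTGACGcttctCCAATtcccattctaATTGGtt
B2m (chr2:122147487-122147685, plus strand): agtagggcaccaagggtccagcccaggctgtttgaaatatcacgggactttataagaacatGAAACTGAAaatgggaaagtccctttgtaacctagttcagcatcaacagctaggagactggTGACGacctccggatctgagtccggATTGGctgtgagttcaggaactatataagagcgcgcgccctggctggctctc
Tap1 (chr17:34187356-34187552, plus strand): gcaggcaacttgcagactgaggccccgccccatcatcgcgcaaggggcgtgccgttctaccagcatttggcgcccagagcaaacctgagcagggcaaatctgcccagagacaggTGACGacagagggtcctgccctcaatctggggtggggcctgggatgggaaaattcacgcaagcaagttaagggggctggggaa
Windows of 250 bases before the RefSeq start were held for 8 of the 10 genes, all but Tap2 and Nlrc5. CCAAT was present in 7 of these 8 windows and in 33.9% of all 32841 windows of that length, and TGACG in 5 of 8 and in 17.8%. The NF-kB-like motif was found in H2-K1 and H2-D1 (4.98% of all windows) and the interferon regulatory factor core in H2-T23, B2m and Erap1 (7.13%). In H2-K1, H2-D1, H2-M3 and B2m, TGACG was followed by ATTGG, the CCAAT of the opposite strand, with exactly 20 bases between them. That spacing, looked for after the windows had been seen, occurred in 30 of the 32841 windows (0.0913%), and H2-K1 and H2-D1 are related genes that share a run of 47 identical bases in their windows. A match of letters is no evidence of binding, and the windows hold no measurement from these libraries.

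Depth was even, with 15128913 to 17592105 counts per library, so that 1 count was worth 0.0552 to 0.0910 CPM (counts scaled to library size, with TMM factors). The libraries cKO basal 2 and cKO EAE 3 did not resemble the others of their group. The first had counts for 17220 genes, the other 11 libraries for 24303 to 26056, and ribosomal protein genes took 5.68% of its counts, against 0.879 to 1.80%. The second, cKO EAE 3, held little of the leukocyte RNA of the other EAE libraries, with Cd74 (the class II invariant chain) at 6.56 CPM, against 340 to 2736 CPM in the other 5 EAE libraries and 1.00 to 3.09 CPM in the 6 basal libraries. All 6 EAE libraries carried male RNA (Ddx3y at 70.3 to 77.0 CPM of the library total) and all 6 basal libraries female RNA (Ddx3y at 0 counts), so that EAE against basal is also a contrast of sex. Drd2 was not lower in cKO: its log2 fold change over control was 0.52 (SE 0.35, adjusted p = 0.318) at EAE and 0.40 (SE 0.34, adjusted p = 0.997) at basal (edgeR quasi-likelihood F test, Benjamini-Hochberg). Neurons of the cord also express Drd2, and which exons were deleted was not stated in the labels, so this does not check a deletion in astrocytes.

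The classical heavy chains were abundant and spanned a wide range across the libraries. H2-K1 (ENSMUSG00000061232, mm10 chromosome 17, 33996017 to 34000333, minus strand) was at 398, 646 and 54.7 CPM in cKO EAE 1, 2 and 3, at 1824, 1085 and 1059 CPM in control EAE 1, 2 and 3, at 39.7, 79.0 and 34.2 CPM in cKO basal, and at 51.6, 37.4 and 30.6 CPM in control basal. The 3 control EAE libraries lay above every other library, cKO EAE 1 and 2 came next, and cKO EAE 3 lay inside the basal range. H2-D1 (ENSMUSG00000073411, chromosome 17, 35262730 to 35267499, plus strand), the other classical chain of this strain, was at 441, 747 and 97.4 CPM in cKO EAE, at 1907, 1168 and 1060.5 CPM in control EAE, at 90.2, 79.8 and 69.5 CPM in cKO basal, and at 99.3, 91.7 and 76.5 CPM in control basal. Its basal level was above that of H2-K1 and its order over the EAE libraries was the same.

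The non-classical chains were lower. H2-T23 encodes Qa-1, which presents leader peptides of other class I chains to the receptor NKG2A on natural killer and T cells. Its transcript stood at 105, 127 and 11.9 CPM in cKO EAE, at 396, 216 and 238 CPM in control EAE, at 9.89, 30.7 and 7.93 CPM in cKO basal, and at 12.97, 11.99 and 9.83 CPM in control basal. H2-M3, which presents peptides that begin with formylmethionine, had the lowest mean CPM of the 10 genes in both EAE groups, at 11.04, 13.96 and 4.32 CPM in cKO EAE, 28.8, 21.7 and 19.4 CPM in control EAE, 4.30, 9.55 and 2.15 CPM in cKO basal, and 4.32, 3.59 and 2.82 CPM in control basal. In both genes cKO EAE 3 lay within the basal range, and cKO basal 2 was the highest basal library.

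The light chain gene B2m (ENSMUSG00000060802, chromosome 2, 122147686 to 122153083, plus strand) was at 633, 1045 and 106 CPM in cKO EAE, at 2462, 1644 and 1556 CPM in control EAE, at 87.8, 81.3 and 79.8 CPM in cKO basal, and at 132, 74.2 and 69.0 CPM in control basal. All 3 cKO EAE libraries lay above the 3 cKO basal libraries, and all of them below the lowest control EAE library.

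The transporter genes differed in how low they started. Tap1 (ENSMUSG00000037321, chromosome 17, 34187553 to 34197225, plus strand) was at 87.6, 110.0 and 6.32 CPM in cKO EAE, at 313, 189 and 229 CPM in control EAE, at 4.48, 2.91 and 5.31 CPM in cKO basal, and at 4.45, 2.82 and 3.70 CPM in control basal. Tap2 (ENSMUSG00000024339, chromosome 17, 34203527 to 34216321, plus strand) was at 34.8, 42.1 and 12.1 CPM in cKO EAE, at 107, 63.4 and 87.4 CPM in control EAE, at 11.1, 32.2 and 9.78 CPM in cKO basal, and at 11.1, 7.84 and 10.4 CPM in control basal. By CPM the Tap2 value of cKO basal 2 stood near those of cKO EAE 1 and 2, while the Tap1 value of that library was the lowest of its group. The TMM factor of that library was 0.728, against 1.01 to 1.06 in the other 11. In TPM (counts scaled to gene length and library) its Tap2 was at 13.9. In that unit cKO basal 1 and 3 were at 10.6 and 10.2, and cKO EAE 1 and 2 at 31.8 and 38.5.

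Tapbp, the gene of tapasin, was at 138, 167 and 40.9 CPM in cKO EAE, at 442, 288 and 317 CPM in control EAE, at 39.6, 112 and 33.6 CPM in cKO basal, and at 44.95, 34.6 and 35.0 CPM in control basal. Erap1 (chromosome 13, 74639568 to 74693201, plus strand) was at 40.9, 49.2 and 17.4 CPM in cKO EAE, at 103, 76.5 and 88.9 CPM in control EAE, at 14.9, 12.8 and 14.4 CPM in cKO basal, and at 12.1, 11.7 and 12.8 CPM in control basal. Nlrc5 (ENSMUSG00000074151, chromosome 8, 94434356 to 94527272, plus strand) was at 76.8, 84.3 and 3.40 CPM in cKO EAE, at 208, 149 and 180.4 CPM in control EAE, at 2.33, 2.64 and 3.04 CPM in cKO basal, and at 1.59, 3.81 and 3.04 CPM in control basal. For the transactivator, cKO EAE 3 lay below 1 of the basal libraries, whereas for Erap1 it lay above all 6.

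**Figure D1:**
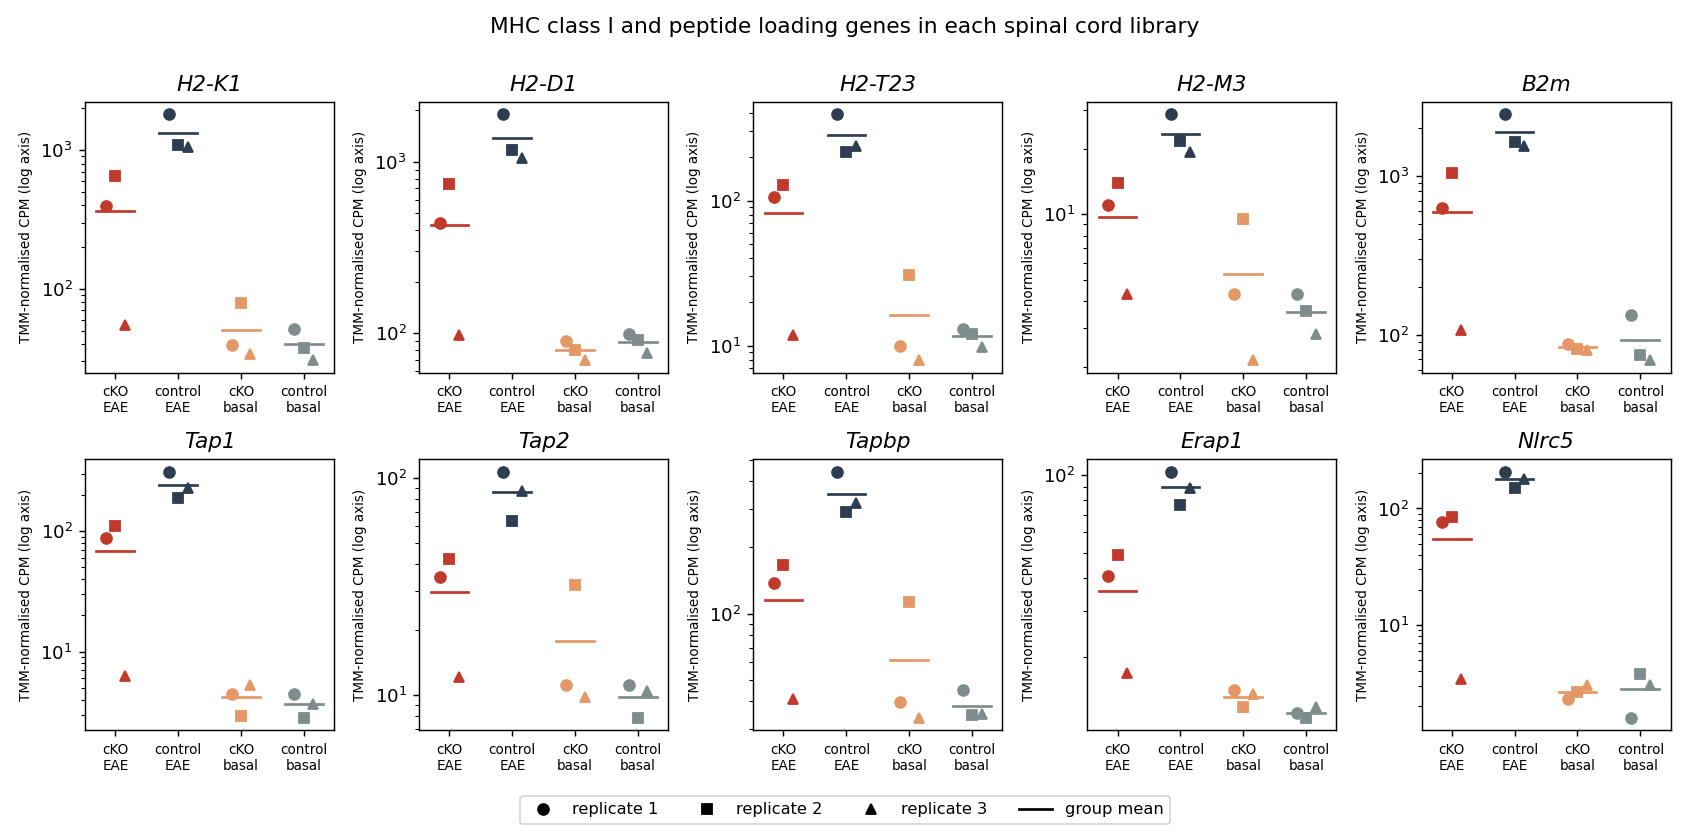
TMM-normalised CPM (log axis) of the 10 class I genes in each library, with cKO EAE, control EAE, cKO basal and control basal from left to right; symbols stand for replicate numbers and lines for group means. In all 10 panels control EAE 1 is the highest library and cKO EAE 3 (triangle) the lowest of the EAE libraries.

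Per length, the light chain was the most abundant product. In control EAE the mean level in TPM (counts scaled to the deposited gene length and to the library) ran from B2m at 7393 ± 1707 through H2-D1 at 1799 ± 539.6, H2-K1 at 1706 ± 501, Tapbp at 357 ± 71.2, H2-T23 at 329 ± 103, Tap1 at 149.9 ± 33.6, Tap2 at 76.6 ± 17.2, Nlrc5 at 71.2 ± 9.52 and H2-M3 at 54.6 ± 9.91 to Erap1 at 41.5 ± 4.801 (SD, n = 3). The library ranges of H2-D1 and H2-K1, of Tapbp and H2-T23, of Tap2 and Nlrc5, and of Nlrc5 and H2-M3 overlapped. Those of the other neighbours in this order did not, although H2-M3 and Erap1 all but met. In control basal the order was B2m at 366 ± 104, H2-D1 at 120.5 ± 9.66, H2-K1 at 52.8 ± 9.42, Tapbp at 40.3 ± 2.48, H2-T23 at 13.99 ± 1.24, Tap2 at 9.02 ± 1.37, H2-M3 at 8.63 ± 1.17, Erap1 at 5.88 ± 0.644, Tap1 at 2.32 ± 0.385 and Nlrc5 at 1.19 ± 0.537 TPM. There the ranges overlapped for Tap2 and H2-M3 and for no other neighbours. Tap1 and Nlrc5 were the lowest of the 10 in control basal and stood above H2-M3 and Erap1 in mean level in control EAE.

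In control mice the question was what EAE changes. All 10 class I genes rose, with every control EAE library above all 6 basal libraries. The share of all genes that separate in this way was not computed. Tap1 rose 66.6-fold (log2 6.06, SE 0.87) and Nlrc5 63.3-fold (5.98, SE 0.95), H2-K1 33.2-fold (5.05, SE 0.79), H2-T23 24.4-fold (4.61, SE 0.82), B2m 20.5-fold (4.36, SE 0.68) and H2-D1 15.5-fold (3.95, SE 0.60). The smaller rises were those of Tapbp at 9.15-fold (3.19, SE 0.57), Tap2 at 8.78-fold (3.13, SE 0.55), Erap1 at 7.32-fold (2.87, SE 0.33) and H2-M3 at 6.50-fold (2.70, SE 0.55). Their adjusted p ran from 0.00318 to 0.00791 (edgeR quasi-likelihood F test, Benjamini-Hochberg over 18601 genes). Of these genes 2243 (12.1%) were called higher. The median log2 fold change of the 10 genes was 4.16, against -0.01 for all genes tested. In the fit that left out cKO basal 2 and cKO EAE 3, all 10 remained called with log2 fold changes of 2.71 to 6.07.

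Markers of T cells, of monocytes and macrophages and of microglia moved with these genes. All 5 of each list were called higher, against 12.1% of all genes tested. In the basal libraries alone 1 of the 5 T cell and 2 of the 5 monocyte and macrophage markers passed the filter. The others entered the test through their EAE counts, so their rise was largely fixed in advance. The summed level of 5 T cell markers was 64.8 to 71.9 CPM in control EAE and 1.33 to 2.86 CPM in control basal, where Cd3g was at 0 counts in all 3 libraries and Cd8a in 2 of them. That of 5 monocyte and macrophage markers was 2983 to 5472 CPM in control EAE and 40.0 to 69.6 CPM in control basal, and that of 5 microglia markers 1659 to 2024 CPM in control EAE and 202 to 222 CPM in control basal. Other leukocyte lists were less uniform. Neutrophil markers (4) summed to 58.4 to 79.0 CPM in control EAE and 0.939 to 12.7 CPM in control basal, with none of 3 tested called. Dendritic cell markers (4) overlapped, at 28.0 to 42.1 CPM in control EAE and 30.3 to 38.9 CPM in control basal, although 2 of 3 tested were called higher. Most of that sum was Flt3, at a mean of 25.6 CPM in control EAE and 33.4 CPM in control basal. Clec9a averaged 6.41 and 0.565 CPM and Xcr1 2.75 and 0.0764 CPM in the same groups. In the basal libraries alone 1 of the 4 passed the filter, so these calls were largely fixed in advance. B cell markers (4) summed to 1.87 to 2.96 CPM in control EAE and 0.331 to 0.572 CPM in control basal. The 1 tested was called higher, and none of the 4 passed the filter in the basal libraries alone. Endothelial markers (5) also summed higher, at 245 to 290.1 CPM in control EAE and 142 to 151 CPM in control basal. Astrocyte markers (5) summed to 3425 to 3498 CPM in control EAE and 2592 to 3283 CPM in control basal. Only 3 of the 5 had a fitted rise, and 1 was called. Aqp4 averaged 1186 CPM in control EAE and 482 CPM in control basal, while Slc1a2 averaged 1678 and 2028 CPM and Gja1 297 and 305 CPM. Neuronal markers (5) summed lower, at 1499 to 1941 CPM in control EAE and 3702 to 4777 CPM in control basal, as did oligodendrocyte markers (4), at 9384 to 12778 CPM in control EAE and 19546 to 20366 CPM in control basal. In whole tissue, more cells of a type and more RNA per cell cannot be told apart, and the part of these markers in the rise of the class I genes was not tested.

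In cKO mice the same contrast was less certain. All 10 genes were higher at EAE by their fitted values, but none passed the test with all libraries. The log2 fold change was 4.36 (SE 0.89) for Nlrc5, 3.996 (SE 0.79) for Tap1, 2.85 (SE 0.71) for H2-K1, 2.84 (SE 0.64) for B2m, 2.42 (SE 0.56) for H2-D1, 2.34 (SE 0.75) for H2-T23 and 1.35 (SE 0.32) for Erap1. It was 0.90 (SE 0.53) for Tapbp, 0.88 (SE 0.53) for H2-M3 and 0.75 (SE 0.51) for Tap2. By CPM, these were the 3 genes in which cKO basal 2 stood closest to cKO EAE 1 and 2. Adjusted p ran from 0.0726 to 0.441 (edgeR quasi-likelihood F test, Benjamini-Hochberg), while 7 of the 10 had an unadjusted p below 0.05, as had 3643 of the 18601 genes tested, and DESeq2 called 7 of the 10 among 1150 genes. Of 18601 genes 7 (0.0376%) were called in either direction. The 3 cKO EAE libraries lay above the 3 cKO basal libraries for H2-D1, B2m, Tap1, Erap1 and Nlrc5, as for 1822 (9.80%) of all genes tested.

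Leaving out both libraries that stood apart changed these calls. Of these, cKO EAE 3 was set apart by its low leukocyte RNA, and its class I genes were low with it. Leaving it out thus selects on values tied to the genes tested, so calls without it are no independent support. Without both libraries all 10 genes rose in cKO mice, from 1.61 (SE 0.17) for Erap1 to 4.89 (SE 0.30) for Nlrc5 on the log2 scale. Tap1 was at 4.32 (SE 0.27), H2-K1 at 3.81 (SE 0.34), H2-T23 at 3.69 (SE 0.29) and B2m at 3.31 (SE 0.36). Adjusted p ran from 8.70e-07 to 0.00114 by the same test, against 10.8% of 18956 genes called higher. Leaving out cKO EAE 3 alone gave 7 of 10. The 3 cKO EAE libraries were unlike each other. The libraries cKO EAE 1 and 2 lay above all 6 basal libraries for each of the 10 genes, at 2.79 to 28.6 and 3.36 to 31.4 times the mean of cKO basal 1 and 3, while cKO EAE 3 lay at 1.12 to 1.48 times that mean. For how many of all genes cKO EAE 1 and 2 lay so was not computed. Against the 5 basal libraries other than cKO basal 2, cKO EAE 3 was the highest for H2-K1, Tap1, Tap2 and Erap1 and not for the other 6 genes. The share of all genes for which this held was not computed, so no weight is put on that count.

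The same library was low in leukocyte markers. The summed T cell markers were at 19.7, 30.8 and 2.74 CPM in cKO EAE 1, 2 and 3 (Cd3g at 0 in the last), and at 1.98 to 3.55 CPM in cKO basal. The monocyte and macrophage markers were at 773, 1680.5 and 109 CPM in cKO EAE 1, 2 and 3 and at 34.7 to 64.7 CPM in cKO basal, and the microglia markers at 723, 1369.6 and 229 CPM and at 136 to 211 CPM in cKO basal. The order of the cKO EAE libraries was that of the class I genes, and the part of these cells in it was not tested.

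**Figure D2:**
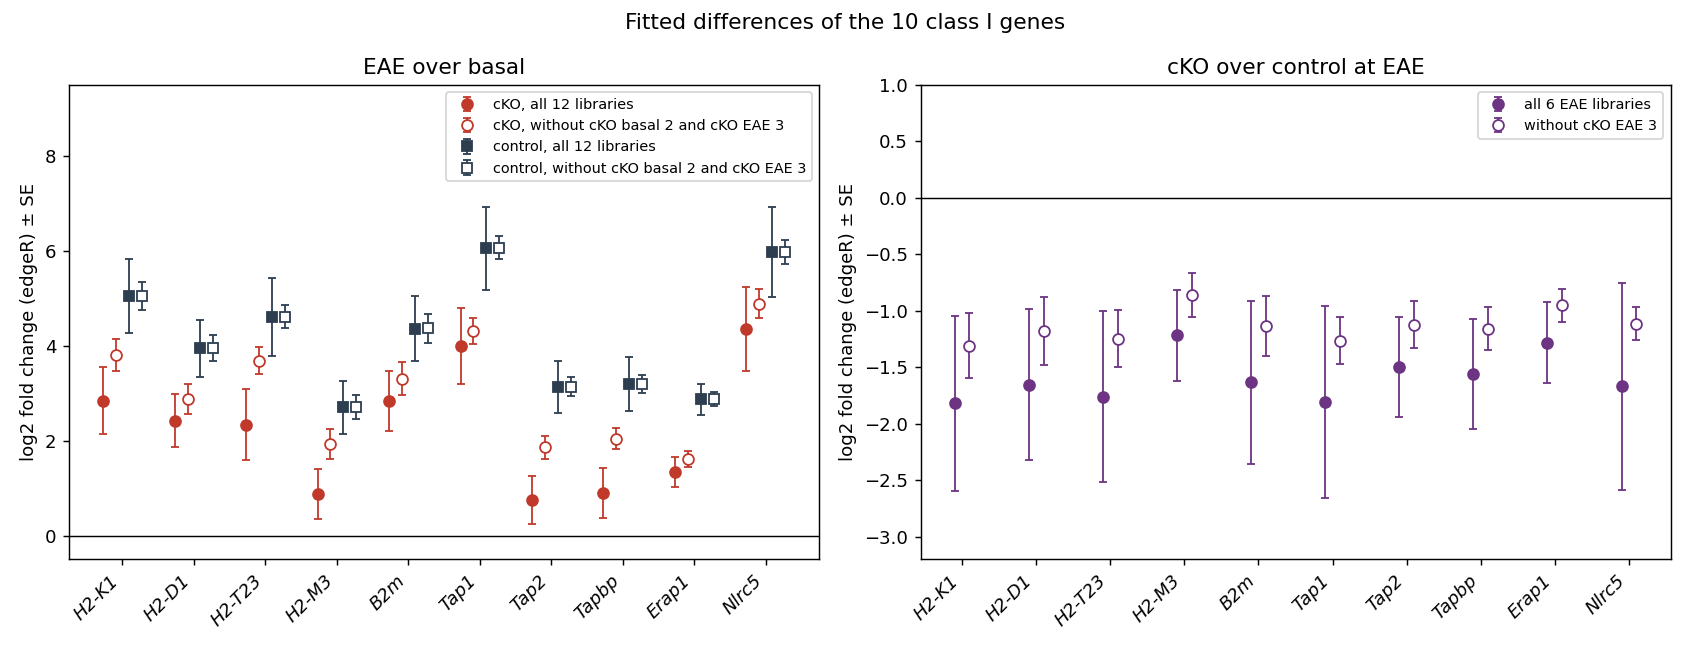
Log2 fold changes (points) with their SE (bars) of the 10 class I genes by edgeR, for EAE over basal in cKO and control mice (left) and cKO over control at EAE (right); open symbols leave out the libraries named in the legend. The control rises stay where they were without these libraries, the cKO rises move up, and the cKO differences at EAE move toward 0 with shorter bars.

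Next, cKO was set against control at EAE. All 10 genes had each cKO library below each control library, and none was called with all 6 libraries. The lowest control EAE library was 1.39 times the highest cKO EAE library for H2-M3 and 1.77 times for Nlrc5, with the other 8 genes between. Fitted log2 fold changes were -1.82 (SE 0.78) for H2-K1, -1.81 (SE 0.85) for Tap1, -1.76 (SE 0.76) for H2-T23, -1.67 (SE 0.92) for Nlrc5, -1.65 (SE 0.67) for H2-D1, -1.63 (SE 0.72) for B2m, -1.56 (SE 0.49) for Tapbp, -1.50 (SE 0.44) for Tap2, -1.28 (SE 0.36) for Erap1 and -1.22 (SE 0.40) for H2-M3. Adjusted p ran from 0.0663 to 0.229 (edgeR quasi-likelihood F test, Benjamini-Hochberg), with an unadjusted p below 0.05 for 5 of 10, as for 6432 of the 17914 genes tested. Of 17914 genes tested, 1374 (7.67%) were called in either direction and 4775 (26.7%) had all cKO libraries below all control libraries, so that such a separation was common. The median over the 10 genes was -1.64, and that over all genes tested was 0 to within 0.001.

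Without cKO EAE 3 the difference was smaller and passed the test, in a set of libraries chosen by values tied to these genes. Such calls are no independent support, here and in the lists below. All 10 genes were then lower in cKO, from -0.86 (SE 0.20) for H2-M3 to -1.31 (SE 0.29) for H2-K1 on the log2 scale, with Nlrc5 at -1.11 (SE 0.15), Tap1 at -1.26 (SE 0.21), B2m at -1.14 (SE 0.27) and Erap1 at -0.95 (SE 0.14). Adjusted p ran from 0.0150 to 0.0327 by the same test, and 1667 of 18319 genes (9.10%) were called lower in that fit. The mean of cKO EAE 1 and 2 was 39.5% of the control EAE mean for H2-K1 and 53.7% for H2-M3, with the other 8 genes between. With all 6 libraries DESeq2 called 4 of the 10 lower, namely H2-M3, Tap2, Tapbp and Erap1, among 5310 genes called in either direction. Within the group order, cKO EAE 2 exceeded cKO EAE 1 and control EAE 1 exceeded both other controls in all 10 genes. The share of all genes with that order was not computed. Summed monocyte and macrophage markers held it too, at 773 and 1680.5 CPM in cKO EAE 1 and 2. They were at 5472, 3608 and 2983 CPM in control EAE 1, 2 and 3.

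At EAE the summed markers of T cells, of monocytes and macrophages and of microglia lay lower in cKO than in control, though none of the 5 markers of each was called, and those of neutrophils and B cells overlapped. The T cell sum was 2.74 to 30.8 CPM in cKO EAE and 64.8 to 71.9 CPM in control EAE, the monocyte and macrophage sum 109 to 1680.5 CPM in cKO EAE and 2983 to 5472 CPM in control EAE, and the microglia sum 229 to 1369.6 CPM in cKO EAE and 1659 to 2024 CPM in control EAE. Neutrophil markers (4) summed to 24.3 to 92.5 CPM in cKO EAE and 58.4 to 79.0 CPM in control EAE, B cell markers (4) to 0.608 to 2.76 CPM in cKO EAE and 1.87 to 2.96 CPM in control EAE, and dendritic cell markers (4) to 31.5 to 42.0 CPM in cKO EAE and 28.0 to 42.1 CPM in control EAE. Most of the dendritic cell sum was Flt3, at a mean of 33.6 CPM in cKO EAE and 25.6 CPM in control EAE. Clec9a averaged 1.61 and 6.41 CPM, Xcr1 1.11 and 2.75 CPM and Cd209a 0.198 and 0.0778 CPM in the same groups. Of 3 dendritic cell markers tested none was called, and 2 had an unadjusted p below 0.05, as had 6432 of 17914 genes. Neuronal markers summed higher, at 2880 to 3948 CPM in cKO EAE and 1499 to 1941 CPM in control EAE, as did oligodendrocyte markers, at 15088 to 19702 CPM in cKO EAE and 9384 to 12778 CPM in control EAE. Of these, 3 of 5 neuronal and none of 4 oligodendrocyte markers were called higher, against 7.67% of all genes called. Astrocyte markers (5) overlapped, at 3312 to 4080 CPM in cKO EAE and 3425 to 3498 CPM in control EAE, with 1 called higher. In these groups Slc1a2 averaged 2512 and 1678 CPM and Aqp4 749 and 1186 CPM, and 2 of the 5 had a fitted rise. Endothelial markers (5) overlapped, at 223 to 258 CPM in cKO EAE and 245 to 290.1 CPM in control EAE, with none called. Schwann cell markers (4) summed to 278, 5.39 and 124 CPM in cKO EAE 1, 2 and 3 and to 3.81 to 4.84 CPM in control EAE. The part of all these markers in the class I difference was not tested.

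Without disease the genotypes were not told apart in these genes. None of the 10 was called by edgeR or DESeq2 or had an unadjusted p below 0.05, log2 fold changes of cKO over control ran from -0.15 (SE 0.23) for H2-D1 to 0.87 (SE 0.52) for Tap2, and every adjusted p was 0.997 (edgeR quasi-likelihood F test, Benjamini-Hochberg). No gene of 17133 was called (0.00%), with 31 at an unadjusted p below 0.05 and 1 called by DESeq2. The median over the 10 genes was 0.29 with all libraries and -0.09 without cKO basal 2. By CPM, Tap2, Tapbp and H2-T23 stood in that library at 3.08, 3.07 and 3.44 times the mean of cKO basal 1 and 3. By TPM the excess was smaller, with Tap2, Tapbp and H2-T23 at 13.9, 55.7 and 17.3 in cKO basal 2. They were at 10.6, 43.2 and 12.3 TPM in cKO basal 1 and at 10.2, 40.2 and 10.8 TPM in cKO basal 3. The size of the EAE response was then compared between genotypes directly. The difference, cKO minus control, ran from -1.52 (SE 0.85) for B2m to -2.38 (SE 0.73) for Tap2 on the log2 scale, with adjusted p of 0.547 to 0.654 by the same test, 6 of 10 at an unadjusted p below 0.05 and none called by DESeq2. No gene of 18601 was called for this difference (0.00%), with 1697 at an unadjusted p below 0.05 and 36 called by DESeq2. Without both libraries that stood apart the difference was -0.78 (SE 0.41) for H2-M3 to -1.75 (SE 0.34) for Tap1, with adjusted p of 0.0911 to 0.338. The EAE responses and the comparison at EAE share the EAE libraries and are not independent of each other.

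Ratios of gene pairs within a library, per length, do not depend on the scaling between libraries. H2-K1 over H2-D1 was 0.892, 0.855 and 0.555 in cKO EAE 1, 2 and 3 and 0.946, 0.918 and 0.987 in control EAE 1, 2 and 3. It was 0.435, 0.979 and 0.486 in cKO basal and 0.514, 0.403 and 0.396 in control basal. The classical chains were close to even in control EAE and H2-D1 was well ahead in control basal, with cKO EAE 3 nearer to the basal values and cKO basal 2 within the range of control EAE. Tap1 over Tap2 was 1.74, 1.80 and 0.361 in cKO EAE and 1.81 to 2.06 in control EAE, against 0.0624 to 0.375 in cKO basal and 0.245 to 0.278 in control basal. The transporter chains thus changed order, with Tap1 above Tap2 in 5 of 6 EAE libraries and below it in all 6 basal libraries and in cKO EAE 3.

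B2m over the sum of H2-K1 and H2-D1 kept within a narrow range, at 2.10 to 2.28 in cKO EAE, 1.99 to 2.21 in control EAE, 1.54 to 2.32 in cKO basal and 1.73 to 2.64 in control basal. The groups overlapped. Nlrc5 over Ciita, the corresponding transactivator of MHC class II, was 1.46 to 7.08 in cKO EAE, 2.73 to 5.98 in control EAE, 0.835 to 1.15 in cKO basal and 0.905 to 1.89 in control basal. With 3 libraries against 3, an exact two-sided permutation test of a ratio cannot give a p below 0.10, and none was run.

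**Figure D3:**
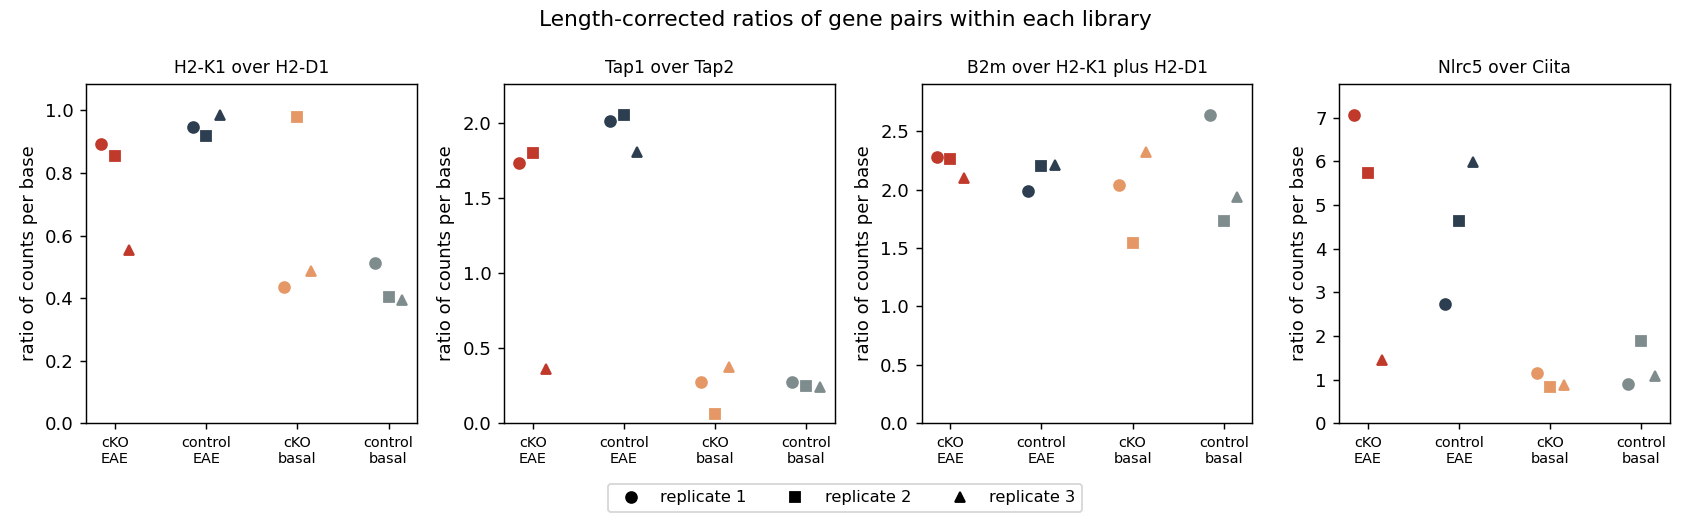
Ratio of counts per base of gene length for 4 pairs of genes in each library, with cKO EAE, control EAE, cKO basal and control basal from left to right and symbols for replicate numbers. H2-K1 over H2-D1 and Tap1 over Tap2 are higher in control EAE than in control basal, while B2m over both classical chains overlaps between all groups.

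Most other class I chains were also higher at EAE in control mice. Of 16 such genes 14 were tested, and 10 rose and none fell at EAE in control mice (median log2 2.11). The share of all genes called higher there was 12.1%. In the basal libraries alone 12 of the 16 passed the filter. H2-M2 and H2-Q10, which were called higher, entered the test through their EAE counts, so their rise was largely fixed in advance. Among the 4 not called, H2-Q2 (log2 -0.72, SE 0.40) had every control EAE library below every control basal library, a gene named after its values had been seen. The Qa-2 genes H2-Q6 and H2-Q7 averaged 149 ± 40.9 and 136 ± 38.8 CPM in control EAE and 1.25 ± 0.686 and 1.398 ± 0.228 CPM in control basal, with log2 fold changes of 6.90 (SE 0.99) and 6.60 (SE 0.99). H2-Q4 rose by 5.70 (SE 0.75) and H2-T22, a chain recognised by some gamma delta T cells, by 2.37 (SE 0.35). In cKO mice none of the 14 was called (median 1.01, 7 at an unadjusted p below 0.05). Without cKO basal 2 and cKO EAE 3, 8 of 14 were called higher (median 1.30), against 10.8% of all genes. At EAE, where 7.67% of all genes were called in either direction, 2 of 14 were lower in cKO than in control, Cd1d1, which presents lipids (-1.33, SE 0.24), and Mr1, which presents vitamin metabolites (-0.77, SE 0.17), with adjusted p of 0.0440 and 0.0482 (edgeR quasi-likelihood F test, Benjamini-Hochberg). Both were named after their values had been seen. Without cKO EAE 3, 6 of 14 were lower, against 9.10% of all genes. Without cKO EAE 1 or any 1 control EAE library no gene of the table was called. Reads of near-identical chains could be split between them by the authors' counting, so single values of the H2-Q genes are uncertain.

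Chaperones and peptidases changed less. Of 9 tested, 4 rose at EAE in control mice (median 0.45), namely Tapbpl, a tapasin relative that edits peptides (log2 2.64, SE 0.53), the disulphide isomerase Pdia3 (0.94, SE 0.27), the lectin chaperone Calr (0.85, SE 0.20) and the folding sensor Uggt1 (0.72, SE 0.20). Of all genes 12.1% were called higher in that comparison. In cKO mice none of the 9 was called (median 0.29, 1 at an unadjusted p below 0.05). Without cKO basal 2 and cKO EAE 3, 1 of 9 was called higher, near the 10.8% of all genes. In cKO against control at EAE, 2 of 9 were lower, Calr at 292 ± 56.9 CPM in cKO EAE and 529 ± 71.6 CPM in control EAE (-0.82, SE 0.17, adjusted p = 0.0459) and Uggt1 at 76.9 ± 9.83 and 109 ± 3.52 CPM in the same groups (-0.47, SE 0.11, adjusted p = 0.0484), by the same test and against 7.67% of all genes called. Without cKO EAE 3, 4 of 9 were lower, against 9.10% of all genes. The calls of Calr and Uggt1 ended without cKO EAE 1 or any 1 control EAE library, where 0 genes were called.

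Of 5 genes of the immunoproteasome and its activator, which cut peptides for class I, 3 rose at EAE in control mice (median 2.37). Among all genes 12.1% were called higher there. Psmb9, which overlaps Tap1 on the opposite strand, averaged 71.2 ± 20.7 CPM in control EAE and 1.52 ± 0.849 CPM in control basal (log2 5.55, SE 0.88). Psmb8 averaged 74.7 ± 23.6 and 1.70 ± 0.469 CPM in the same groups (5.46, SE 1.102), and the activator subunit Psme1 rose by 2.37 (SE 0.59). Its partner Psme2 was not called (2.07, SE 0.97). In cKO mice none was called (median 0.24), and of 2 at an unadjusted p below 0.05 Psme2 was lower at EAE (-2.15, SE 0.97). Without cKO basal 2 and cKO EAE 3 all 5 were called higher (median 1.55), against 10.8% of all genes. Psme2 was at 9.77, 157 and 6.74 CPM in cKO basal 1, 2 and 3. None was called in cKO against control at EAE (median -1.65, all 5 at an unadjusted p below 0.05, as 6432 of 17914 genes). Without cKO EAE 3 all 5 were lower, against 9.10% of all genes.

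Among 10 regulators, 6 rose and 1 fell at EAE in control mice (median 1.86). Of 18601 genes tested there 3183 were called in either direction, and 12.1% higher. In the basal libraries alone 9 of the 10 regulators passed the filter. The other entered the test through its EAE counts, so a rise in it was largely fixed in advance. Irf1, an interferon-induced transcription factor, averaged 132 ± 49.0 CPM in control EAE and 4.66 ± 0.532 CPM in control basal (log2 4.82, SE 0.75). Ciita rose by 4.39 (SE 0.66) and the interferon gamma receptor chain Ifngr1 by 2.40 (SE 0.40), while Rfxap, a subunit of the factor that binds X boxes, fell by 0.69 on the log2 scale (SE 0.19, adjusted p = 0.0332). None of the 10 was called in cKO mice (median 1.09) or in cKO against control at EAE (median -0.94), with 6 at an unadjusted p below 0.05 in each, as for 3643 of 18601 and 6432 of 17914 genes. Without cKO basal 2 and cKO EAE 3, 5 of 10 were called higher in cKO mice at EAE, against 10.8% of all genes. Without cKO EAE 3, 6 of 10 were lower in cKO than in control, against 9.10% of all genes.

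Genes of class I recognition and killing were near 0 in the basal cord. All 7 tested of 9 were called higher at EAE in control mice, against 12.1% of all genes tested. None of the 9 passed the filter in the basal libraries alone. The 7 entered the test through their EAE counts, so their rise was largely fixed in advance and is no support. Cd8a, the CD8 coreceptor chain, had 79 counts over the cKO EAE libraries, 277 over the control EAE libraries, 0 over cKO basal and 1 over control basal. Klrk1 (the activating receptor NKG2D) had 81, 273, 0 and 0 counts in that order of groups, and in control mice was at least 92.0-fold higher at EAE than a floor of 3 counts over the basal group. Klrc1, which encodes the NKG2A receptor for Qa-1, had 34, 142, 0 and 1 counts, and Pirb, an inhibitory class I receptor of myeloid cells, averaged 17.3 ± 16.0 CPM in cKO EAE, 78.2 ± 30.2 CPM in control EAE, 1.17 ± 1.35 CPM in cKO basal and 0.451 ± 0.251 CPM in control basal. With genes at or under the floor set to it, the median log2 fold change was 6.52 in control mice and 3.98 in cKO mice. In cKO mice none was called, and all 7 had an unadjusted p below 0.05, as had 3643 of 18601 genes. Without cKO basal 2 and cKO EAE 3, 7 of 9 tested were called higher in cKO mice, against 10.8% of all genes. None of the 7 was called in cKO against control at EAE (1 at an unadjusted p below 0.05). Without cKO EAE 3, 4 of 9 tested were lower, against 9.10% of all genes.

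**Figure D4:**
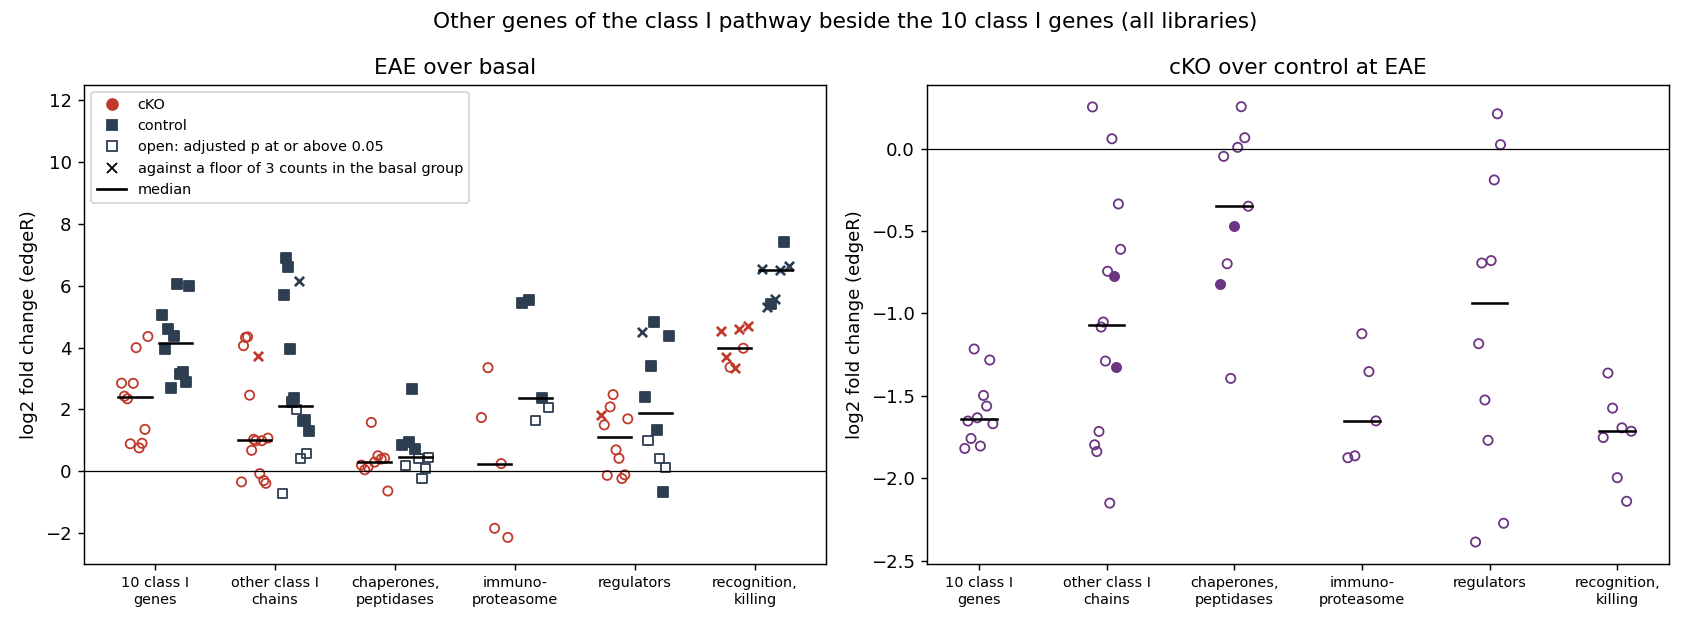
Log2 fold changes of the 10 class I genes and of 5 lists of other genes of the pathway, for EAE over basal in cKO (left points) and control mice (right points) in the left panel and for cKO over control at EAE in the right panel; filled symbols passed an adjusted p of 0.05, crosses are computed against a floor of 3 counts in the basal group, and black lines are medians. The filled symbols of the left panel are all from control mice.

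The pattern of the class I genes over the 12 libraries was shared closely by other genes. By the root mean square difference between a gene's centred log2(CPM + 0.5) and the mean of the 10 class I genes, the nearest protein-coding genes were Plek (0.128), Ctsh (0.160), Lyn (0.161), Klhl6 (0.168), Pik3cg (0.189), Lsp1 (0.189), Milr1 (0.189) and Parp10 (0.193). Plek, which encodes pleckstrin, was at 67.7, 116 and 14.5 CPM in cKO EAE 1, 2 and 3, at 259.5, 205 and 211 CPM in control EAE, at 12.3, 20.01 and 10.7 CPM in cKO basal, and at 12.53, 12.6 and 11.7 CPM in control basal. Of the 10 genes themselves H2-D1 lay nearest to their mean (0.233) and Nlrc5 farthest (0.957). All libraries of these values are shared, and the likeness is a description with no test.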

How the data were processed

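Per the submitters' processing notes, reads were aligned with HISAT2 2.0.5 to mm10 and counted with featureCounts 1.5.0-p3. The deposited table held raw counts per gene, not normalised. Strand setting, treatment of reads with several positions, annotation release and library kit are not given in the sources used here. By its coordinates, 7 of the 10 genes overlap another gene, Tapbp and Nlrc5 one on the same strand, and such counts are uncertain. Of the 100-base stretches of the longest GENCODE M21 transcript, 4.64% of those of H2-D1, 3.93% of H2-T23 and 0.107% of Tapbp also occurred in transcripts of other genes, and none of those of the other 7.

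The counts were tested with edgeR 4.0.16 (quasi-likelihood F test, TMM factors, its filter for low counts, limma 3.58.1, R 4.3.3) and called at a Benjamini-Hochberg adjusted p below 0.05 over all genes tested. The EAE responses and their difference came from 1 fit of 12 libraries, and the genotype comparisons from the 6 libraries of a state. The SE is the log2 fold change divided by the square root of F. CPM are TMM-normalised except where the library total is named, and 1 count was worth 0.0552 to 0.0910 CPM. The scripts were checked on counts simulated with a smaller spread than these libraries have, so that check does not measure power or error rates here. Alternatives were DESeq2 size factors, no filter, the replicate number as a block, DESeq2 1.42.0, other sets of libraries and leaving out each library. The class I genes, lists, markers and alternatives were chosen with earlier results of these data known. Named were all 10 genes, up to 4 genes of each list by smallest p in control EAE against basal, and the 8 genes with the nearest pattern. A regulator that this rule would name and a motif that was searched are not reported here. No libraries held identical values, and none agreed within sampling noise. The labels call them biological replicates.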

Additional observations from a re-analysis of the deposited data

How the results depend on the processing

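In control mice all 10 class I genes were called higher at EAE under each of 18 alternatives, with log2 fold changes from 2.44 (lowest for H2-M3) to 6.22 (highest for Nlrc5). Over all genes that comparison gave 3183 calls, 8673 without both libraries that stood apart, 8149 in a fit of the 6 control libraries, and 1724 (without control basal 3) to 8166 (without cKO basal 2) when 1 library was left out, with 1833, 2073 and 1767 without control EAE 1, 2 and 3 and 1936 and 1752 without control basal 1 and 2. In cKO mice, none of the 10 was called with all libraries, against 6 without the filter on low counts, 7 by DESeq2, 10 without both libraries that stood apart, and 0 to 7 when 1 library was left out (7 without cKO EAE 3). Over all genes the 7 calls became 493, 1150 and 2715 under the same 3 settings, 0 in a fit of the 6 cKO libraries, and 5 to 1075 (without cKO EAE 3) when 1 library was left out. In cKO against control at EAE, 1 of the 10 was called without the filter, 4 by DESeq2 and 0 to 10 when 1 library was left out (1 without cKO EAE 2, 10 without cKO EAE 3). Over all genes the 1374 calls became 5310 by DESeq2, 0 in a fit of all 12 libraries, and 0 (without cKO EAE 1 or any control EAE library) to 3418 (without cKO EAE 2) or 3336 (without cKO EAE 3). At basal DESeq2 called 1 gene, and 36 for the difference of both responses. The direction of the basal differences turned in 6 genes when 1 library was left out, over ranges of -0.11 to 0.59 for H2-K1, -0.38 to 0.81 for H2-T23, -0.14 to 0.96 for H2-M3, -0.31 to 0.22 for B2m, -0.060 to 1.00 for Tapbp and -0.35 to 0.20 for Nlrc5. The cause of these moves was not tested. The direction of the other 4 comparisons held for all 10 genes in every alternative run.

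Same-numbered libraries did not deviate together (correlations of -0.51 to 0.42, with 2 to 4 of the 6 libraries of a comparison closest to their own number), so the numbers are not taken as pairs. With the replicate block 0 genes were called in cKO against control at EAE, and Nlrc5 at basal turned to 0.012. No call of the 10 genes changed with that block.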
